A study of Mus musculus with 31 samples.

Results

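Levels of 10 cell cycle genes were followed in the colon of mice that received azoxymethane (AOM) and dextran sodium sulphate (DSS), with and without E171, the food additive made of titanium dioxide particles. The genes were Mki67, Top2a, Ccnb1, Ccna2, Cdk1, Aurka, Bub1, Plk1, Mcm2 and Pcna, and they were taken as the probes whose gene name in the array files was one of these symbols. They are 10 of the 19798 genes tested and were represented by 18 of 56605 probes. RNA of the distal colon of BALB/c mice was hybridised to 31 one-colour Agilent arrays. In the CRC groups the mice had been injected once with AOM, a carcinogen, a week before the exposure, had drunk DSS, which inflames the colon, on the first days, and were gavaged with water. In the CRC + E171 groups the mice had the same AOM and DSS and were gavaged with E171 at 5 mg per kg body weight per day. The arms follow the treatment label of each sample, since the protocol text, the same for all samples, mentions only a gavage of water. Animals were killed after 2, 7, 14 or 21 days, which gave 8 groups. Of these, 7 held 2 males and 2 females, and CRC at 21 days held 1 male and 2 females. No group without AOM and DSS was on the arrays, so the values give the difference that E171 makes within the model and not the level of a healthy colon.

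A dividing cell copies its DNA in S phase and separates the copies in mitosis. Pcna, the sliding clamp of the DNA polymerases, and Mcm2, a subunit of the helicase that opens replication origins, act in replication. Cyclin A2 (Ccna2) acts in S phase and G2 with its kinases, and cyclin B1 (Ccnb1) with the kinase Cdk1 drives entry into mitosis. Top2a untangles DNA before the chromosomes separate, Aurka and Plk1 are kinases of the spindle poles and of mitotic progression, Bub1 is a kinase of the spindle checkpoint, and Mki67 encodes the antigen Ki-67, which coats mitotic chromosomes and marks cells that are in cycle. In the colon most dividing cells lie in the lower part of the crypts, while the surface colonocytes have left the cycle, and activated lymphocytes and stromal cells divide as well. In RNA from a whole piece of colon, fewer dividing cells and less RNA per cell cannot be told apart.

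Each probe is a sequence of 60 bases. The probes below are shown because the values of Bub1, Cdk1, Pcna, Top2a and Ccnb1 rest on them, and their positions are those that the array files give on the mm9 build. The Cdk1 and Pcna probes span 2410 and 138 bases of the genome, so that they cross a splice junction.
Bub1 probe A_51_P123405 (chr2:127626988-127627047, strand -): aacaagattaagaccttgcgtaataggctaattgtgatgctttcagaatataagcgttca
Cdk1 probe A_51_P450033 (chr10:68805423-68807832, strand -): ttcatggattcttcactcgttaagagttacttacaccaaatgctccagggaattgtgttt
Pcna probe A_51_P396351 (chr2:132075420-132075557, strand -): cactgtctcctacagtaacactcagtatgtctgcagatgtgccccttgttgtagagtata
Top2a probe A_55_P1995205 (chr11:98855522-98855581, strand -): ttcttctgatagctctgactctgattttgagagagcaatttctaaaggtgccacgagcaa
Ccnb1 probe A_55_P2128668 (chr13:101553449-101553508, strand -): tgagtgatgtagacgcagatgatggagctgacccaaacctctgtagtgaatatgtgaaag
Ccnb1 probe A_55_P1952256 (chr13:101551224-101551283, strand -): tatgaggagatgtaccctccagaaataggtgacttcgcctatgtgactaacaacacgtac

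Top2a and Ccnb1 had 4 probes each, Ccna2 and Bub1 had 2, and the other members had 1. The second Bub1 probe was well above background on 0 of 31 arrays and was left out, and a dim Ccnb1 probe was well above background on 22 of 31. The other 16 probes were well above background on all 31 arrays and none was saturated. With group means removed, probes of the same gene ran in parallel over the arrays. Correlations were 0.89 to 0.98 for Top2a, 0.93 for Ccna2 and 0.75 to 0.98 for Ccnb1, where the lowest values belonged to the dim probe. That probe shares 26 bases with another probe of Ccnb1, so these 2 are not independent readings. The shared bases lie at chr13:101548722-101548747 on mm9 and are shown in the next line.
Ccnb1 shared probe bases: tttaatttatacatctgatatcaagt

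Promoters of 9 of the 10 members were found in the RefSeq table of the GRCm38.p6 build; Ccna2 was not among them. The promoters of genes that move together are shown for the mitotic genes Top2a, Cdk1 and Mki67 and for the replication genes Mcm2 and Pcna, from 190 bases before to 30 bases after the start site, 5′ to 3′ on the gene's strand. Capitals mark matches to CCAAT (or its reverse complement ATTGG) and to TTTGAA (or TTCAAA), the core of the element known as CHR.
Top2a (chr11:99024160-99024379, strand -): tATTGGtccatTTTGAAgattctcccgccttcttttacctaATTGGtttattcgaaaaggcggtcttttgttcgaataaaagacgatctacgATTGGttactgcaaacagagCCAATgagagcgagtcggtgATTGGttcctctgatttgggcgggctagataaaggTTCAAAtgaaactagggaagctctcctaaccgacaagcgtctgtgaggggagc
Cdk1 (chr10:69352883-69353102, strand -): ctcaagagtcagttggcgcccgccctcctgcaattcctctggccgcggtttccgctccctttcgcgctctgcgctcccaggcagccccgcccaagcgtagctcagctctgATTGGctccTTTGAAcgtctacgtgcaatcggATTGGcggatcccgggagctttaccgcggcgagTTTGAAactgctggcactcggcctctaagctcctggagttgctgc
Mki67 (chr7:135716350-135716569, strand -): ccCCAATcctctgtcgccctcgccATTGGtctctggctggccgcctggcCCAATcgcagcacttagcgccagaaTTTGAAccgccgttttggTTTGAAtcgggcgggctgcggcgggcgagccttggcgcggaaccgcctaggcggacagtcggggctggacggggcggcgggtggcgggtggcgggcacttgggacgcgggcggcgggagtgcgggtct
Mcm2 (chr6:88898751-88898970, strand -): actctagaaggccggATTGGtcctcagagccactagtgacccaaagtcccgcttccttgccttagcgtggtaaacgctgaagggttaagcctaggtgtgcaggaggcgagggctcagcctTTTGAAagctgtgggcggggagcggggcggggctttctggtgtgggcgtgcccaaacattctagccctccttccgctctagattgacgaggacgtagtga
Pcna (chr2:132253151-132253370, strand -): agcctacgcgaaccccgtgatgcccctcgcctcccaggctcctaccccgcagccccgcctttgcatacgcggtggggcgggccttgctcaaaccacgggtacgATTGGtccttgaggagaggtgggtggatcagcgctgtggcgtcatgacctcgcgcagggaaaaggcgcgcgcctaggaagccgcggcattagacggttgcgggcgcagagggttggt

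Windows of 300 bases, 250 before and 50 after the start site, were searched on both strands. TTTGAA or TTCAAA was in 6 of the 9 member windows, those of Aurka, Mcm2, Plk1, Mki67, Cdk1 and Top2a, and in 17.9% of 32841 windows of the table. CCAAT or ATTGG was in 9 of 9 member windows and in 37.4% of all windows. At least 2 copies of it were in 6 of 9 member windows, those of Bub1, Aurka, Mki67, Cdk1, Top2a and Ccnb1, and in 11.7% of all. The strict E2F letters TTTCCCGC and TTTGGCGC, with their reverse complements GCGGGAAA and GCGCCAAA, were in 0 of the 9 and in 1.57% of all windows. CCAAT and TTTGAA matches can share a base, which no matches in the printed sequences do. A match is a description of the sequence and not a binding site.

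The share of spots well above background was 67.4 to 78.9% per array. Every value below is scaled to the array's own 75th percentile, which lay between 1717 and 6536. The arrays of a given day in CRC and in CRC + E171 were on different slides. A difference with E171 on a single day therefore cannot be told apart from one between slides. Each slide that held a group carried 1 male and 1 female of it, apart from a slide with 1 array of CRC at 21 days. Some arrays stood apart in their tissue markers. The mean log2 signal of 9 surface colonocyte markers, relative to their means over all arrays, was −6.03 in male 1 and −3.78 in male 2 of CRC at 7 days and −3.12 in male 2 of CRC + E171 at 14 days, against −0.54 to 1.33 in the other arrays. Squamous epithelium markers (6 genes) were at 6.01 in male 1 of CRC at 7 days, 5.01 in female 1 of CRC at 21 days, 5.83 in male 2 of CRC + E171 at 14 days and 2.88 in female 1 of CRC + E171 at 21 days, against −1.64 to 1.6 elsewhere. Pancreatic acinar markers were at 6.82 in female 1 and 7.67 in male 2 of CRC at 7 days, 5.12 in male 2 of CRC and 9.47 in female 2 of CRC + E171 at 2 days, and 9.61 in female 2 of CRC + E171 at 21 days, against −3.03 to 0.59 elsewhere. The array labelled male 2 of CRC at 14 days had an Xist level of −1.6, within the range of the females (−2.34 to −0.7) and above that of the other males (−8.51 to −6.53).

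All member values are log2 signals relative to the 75th percentile of the array, given as the mean ± SD over arrays. Because each probe binds with its own strength, the level of one gene is not set against that of another. Over the 31 arrays Ccnb1 ranged over 3.22 log2 units, Bub1 over 3.26 and Mcm2 over 3.25, and the narrowest ranges were those of Mki67 (1.63) and Pcna (1.62). The values of every array are shown in the plot of member levels by group.

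**Figure D1:**
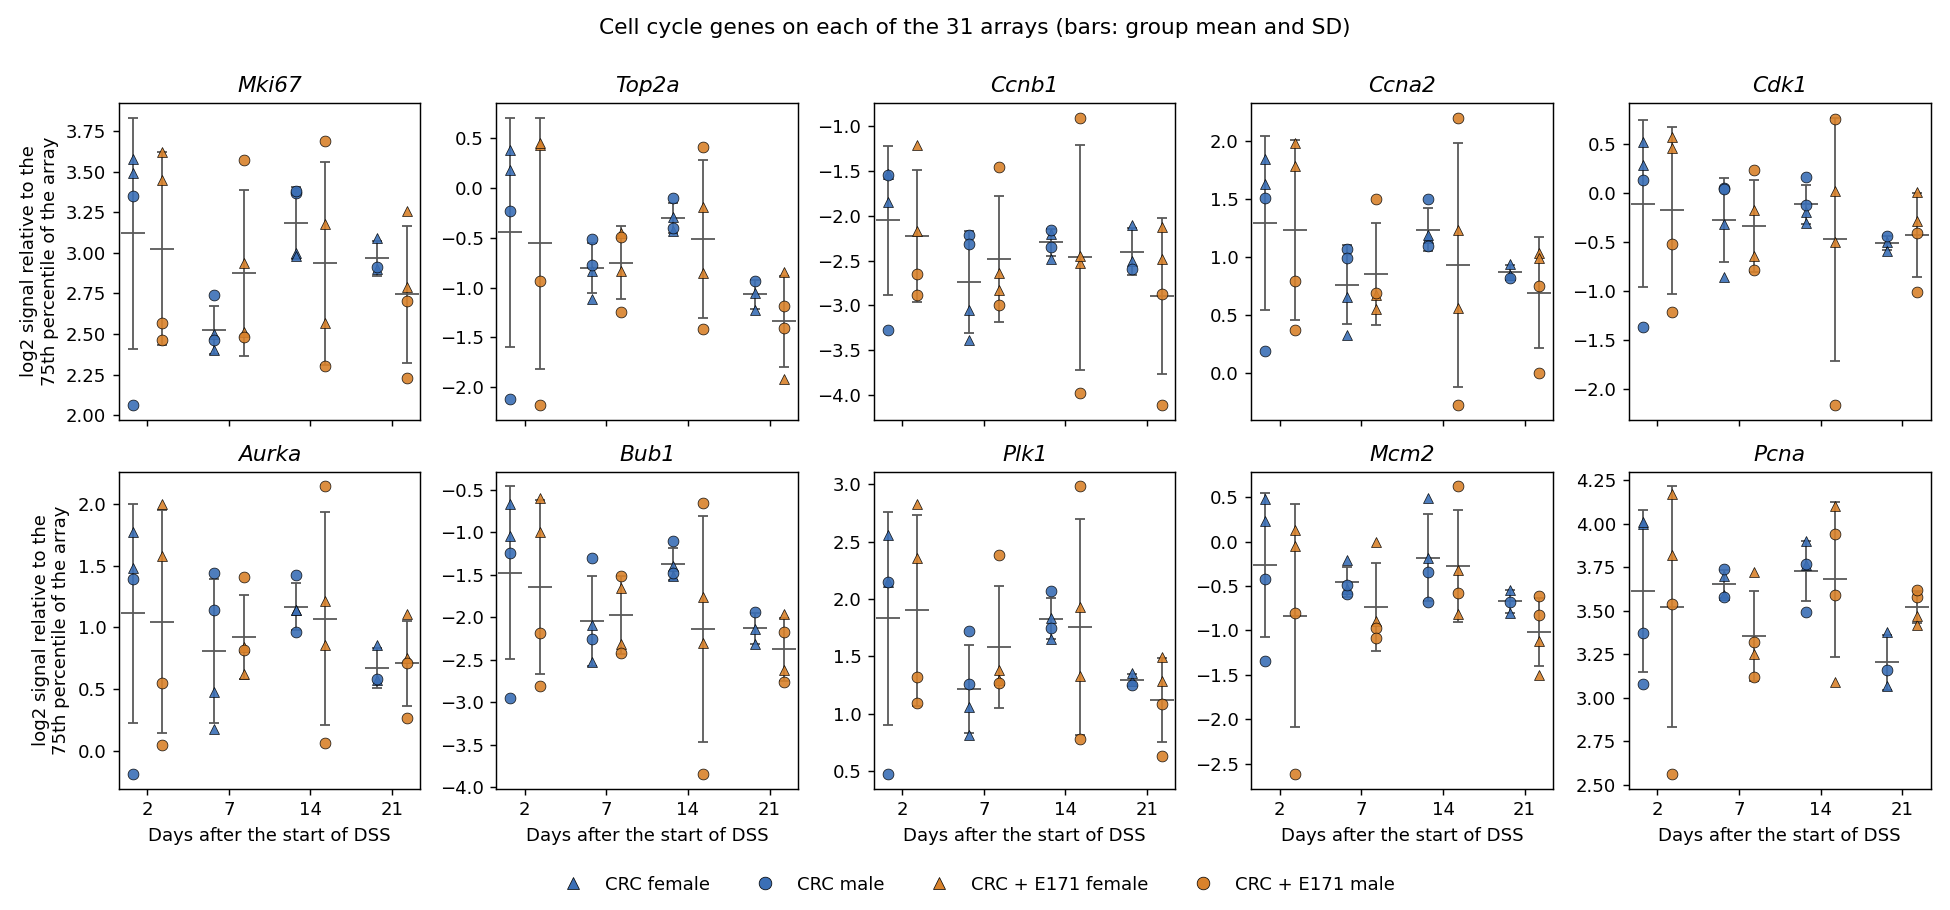
Log2 signal of the 10 members relative to the 75th percentile of the array, by days after the start of DSS, for CRC and CRC + E171 with the sexes marked and bars for the group means. Most members spread over more than 1 log2 unit within the groups of 2 days and within CRC + E171 at 14 days, and CRC at 14 and 21 days are the tightest groups.

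Among the replication genes, Pcna had group means from 3.2 ± 0.16 (SD, n = 3) in CRC at 21 days to 3.73 ± 0.17 (n = 4) in CRC at 14 days. Mcm2 ran from −1.02 ± 0.38 (n = 4) in CRC + E171 at 21 days to −0.18 ± 0.49 (n = 4) in CRC at 14 days. The groups between these ends overlapped in both genes. Ccna2, which acts from S phase on, lay between 0.69 ± 0.48 in CRC + E171 at 21 days and 1.29 ± 0.75 in CRC at 2 days.

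Among the genes of mitotic entry, Cdk1 stayed between −0.51 ± 0.07 (n = 3) in CRC at 21 days and −0.11 ± 0.86 (n = 4) in CRC at 2 days, and Ccnb1, its cyclin, between −2.9 ± 0.87 in CRC + E171 at 21 days and −2.05 ± 0.84 in CRC at 2 days. The kinases of the spindle pole, Aurka and Plk1, ran from 0.67 ± 0.17 to 1.17 ± 0.19 and from 1.12 ± 0.37 to 1.9 ± 0.83. Bub1 had its lowest mean in CRC + E171 at 21 days (−2.38 ± 0.37) and its highest in CRC at 14 days (−1.37 ± 0.19). Top2a had the same ends, at −1.33 ± 0.45 and −0.3 ± 0.15, and Mki67 ran from 2.53 ± 0.15 in CRC at 7 days to 3.18 ± 0.22 in CRC at 14 days. In every member, groups next to each other in the order of their means overlapped in the range of their arrays.

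The spread between arrays differed between groups in all members together. In CRC at 21 days the SDs of the 10 members were 0.05 to 0.27 and in CRC at 14 days 0.15 to 0.49. In CRC at 2 days they were 0.46 to 1.15, in CRC + E171 at 2 days 0.59 to 1.26, and in CRC + E171 at 14 days 0.45 to 1.33. The last group held both the lowest and the highest mean of the members: −0.96 in male 1 and 1.11 in male 2, relative to each gene's mean over all arrays. Male 2 was the array with the highest level of all 31 in Mki67, Ccnb1, Ccna2, Cdk1, Aurka, Plk1 and Mcm2, and it was also one of those with low colonocyte and high squamous markers. The part of these markers in the member levels was not tested.

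The members varied together from array to array. The mean of each gene in its group was subtracted first, so that differences between groups do not enter. Over the 31 arrays, the correlation (Pearson's r) between pairs of the 8 members other than Mcm2 and Pcna then had a median of 0.91 (28 pairs, 0.68 to 0.97). Mcm2 and Pcna correlated with each other at 0.89 and with the 8 others at a median of 0.58 (16 pairs, 0.23 to 0.8), the lowest being Ccnb1 with Pcna. The replication genes thus shared less of their pattern with the mitotic genes than with each other. These are descriptions over arrays that share groups, slides and scaling, and no test is attached to them.

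**Figure D2:**
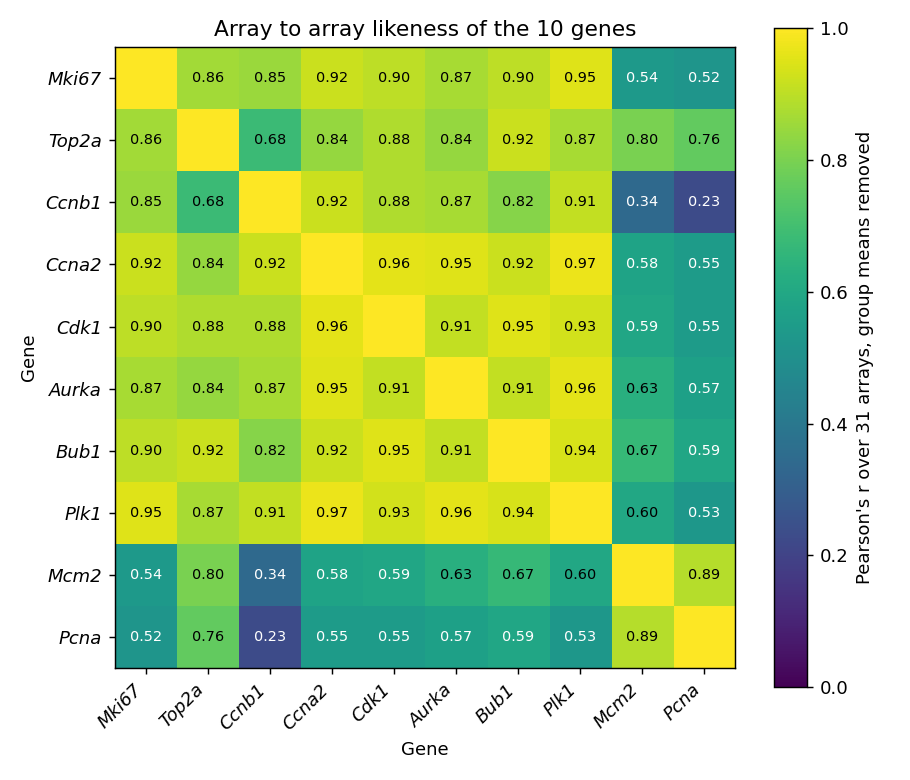
Pearson's r between each pair of the 10 members over the 31 arrays, group means removed, on the scale given beside the grid. The 8 genes from Mki67 to Plk1 form a block with r of 0.68 to 0.97, and Mcm2 and Pcna form a pair of their own at 0.89.

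Of 19788 genes outside the members, 0.258% had an r above 0.9 with the members' mean, and the median over all genes was 0. Every r in this paragraph was taken with group means removed. The 10 genes most like the members were Ska1 (r = 0.98), Ncaph, Aurkb and Cdca8 (0.97), Tacc3, Shcbp1, Sgo1 and Spc25 (0.96), and Dsn1 and Tpx2 (0.95). Several of them are well known mitotic genes: Aurkb and Cdca8 belong to the chromosomal passenger complex, Ncaph to condensin, Spc25 to the outer kinetochore and Tpx2 to the spindle. The 5 lowest were Zfp385b (−0.79), Crk and Dnase1l1 (−0.76), Rcan3 (−0.75) and Pctp (−0.74). The mean of 58 genes of mitotic entry, spindle and checkpoint followed the members' mean at r = 0.99 (all 58 genes positive), that of 40 replication genes at 0.84 (40 of 40 positive), and that of 15 G1 to S cyclins, kinases and E2F factors at 0.78. The mean of 17 inhibitors and exit genes stood at 0.18, with 7 of 17 positive. Among the cell type lists the values were 0.48 for macrophages, 0.43 for T cells, 0.43 for crypt stem cells, 0.35 for neutrophils, 0.29 for pancreatic acinar cells, 0.21 for B cells and for squamous epithelium, 0.08 for germinal centre B cells, 0.06 for fibroblasts, −0.11 for smooth muscle, −0.22 for the pan-epithelial list, −0.38 for surface colonocytes and −0.41 for goblet cells.

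**Figure D3:**
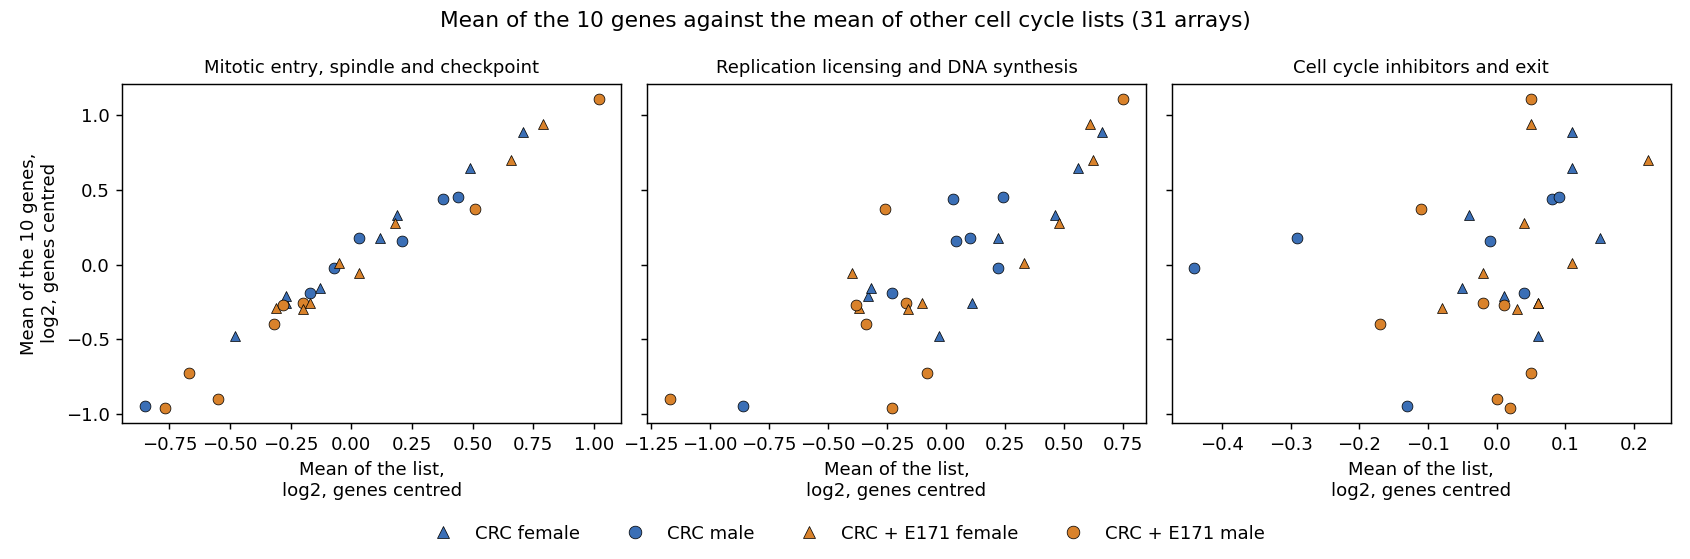
Mean of the 10 members against the mean of the mitotic, the replication and the inhibitor list, both in log2 units relative to each gene's mean over all arrays, with 1 point for each of the 31 arrays. The points keep the differences between groups. With group means removed, r was 0.99 for the mitotic, 0.84 for the replication and 0.18 for the inhibitor list.

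The first comparison asked whether E171 altered the members at each time point. None of the 10 was a differentially expressed gene (DEG) at any day, where a DEG had a linear fold change of 1.5 or more and an unadjusted p under 0.05 in limma's test. Of all 19798 genes, 1.72% met that rule after 2 days and 12.4% after 7 days. The shares were 6.34% after 14 and 2.67% after 21 days. With a p adjusted over all genes by the Benjamini-Hochberg method, 0 members and 0% of all genes passed at each of the 4 days. At an unadjusted p under 0.05 alone, 0 of the 10 members passed at any day, where 2.73%, 16.8%, 7.98% and 5.8% of all genes did after 2, 7, 14 and 21 days.

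**Figure D4:**
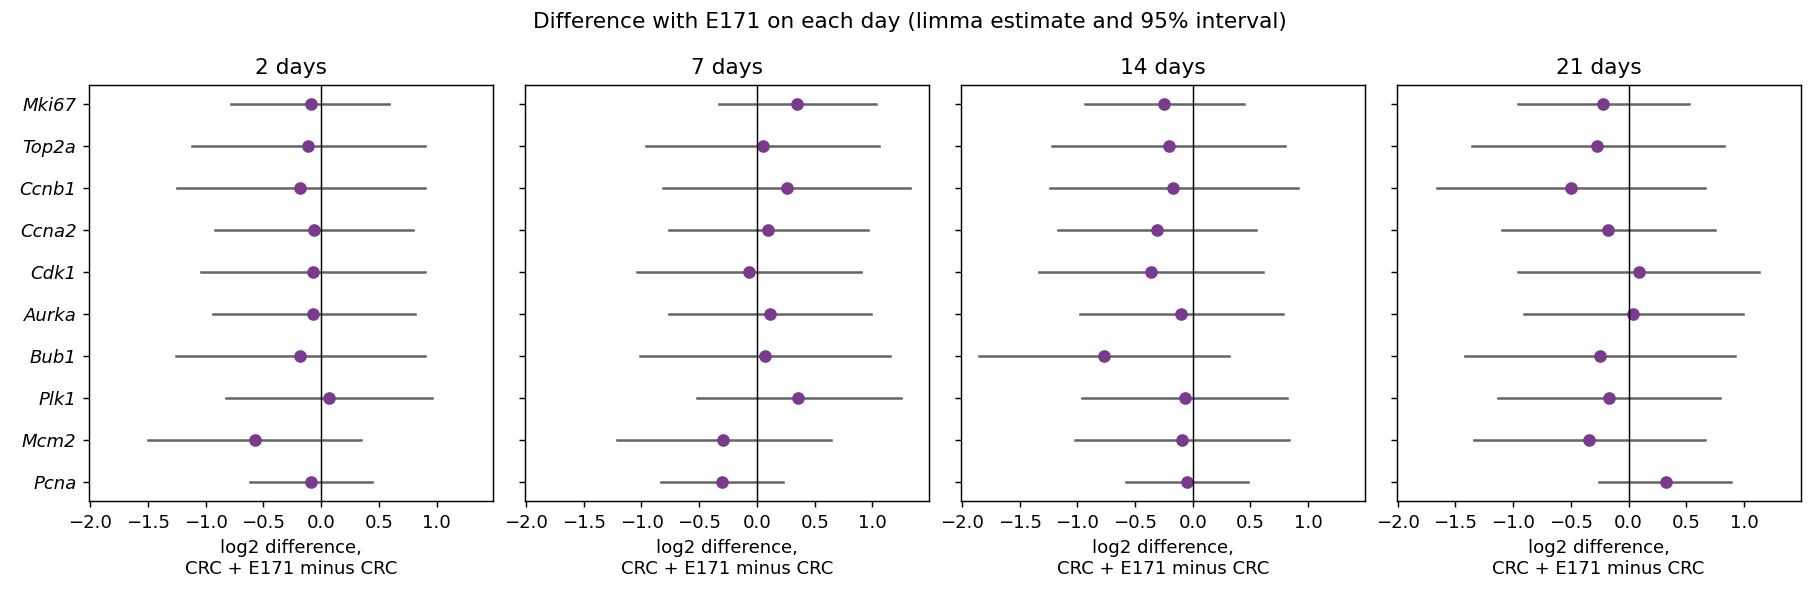
Log2 difference of CRC + E171 from CRC for each member and day, with 95% confidence intervals from limma. Every interval includes 0, and at 14 days all 10 points lie below it, between −0.77 and −0.05.

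At 2 days 9 of the 10 differences were below 0, from −0.57 in Mcm2 to 0.07 in Plk1, with a median of −0.09 against 0.06 over all genes. Without 1 array the median was −0.5 (male 1 of CRC left out) to 0.23 (male 2 of CRC + E171 left out, with 9 of 10 above 0). Mcm2 read 0.23, 0.48, −1.34 and −0.42 in CRC (female 1, female 2, male 1, male 2) and −0.05, 0.13, −0.8 and −2.62 in CRC + E171. The groups overlapped, and the value of −2.62 in male 2 was the lowest Mcm2 level of all 31 arrays. The difference was −0.57 (SE 0.45, limma adjusted p = 0.999, 95% interval −1.5 to 0.35), and it was 0.02 without that array. The level of Plk1 differed by 0.07 (SE 0.43) and that of Pcna by −0.09 (SE 0.26).

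At 7 days 7 differences were above 0 and 3 below, from −0.3 in Pcna to 0.36 in Plk1, with a median of 0.08 against −0.01 over all genes. Plk1 was at 1.06, 0.81, 1.26 and 1.72 in CRC and at 1.38, 1.29, 2.38 and 1.27 in CRC + E171 (females first). The groups overlapped, since male 2 of CRC lay above 3 of the 4 arrays with E171. The difference of 0.36 had an SE of 0.43 (limma adjusted p = 0.714), and it was 0.1 without male 1 of CRC + E171, the array at 2.38. Without that array 8 of the 10 members were below 0, with a median of −0.08. For Mki67 it was 0.35 (SE 0.33, adjusted p = 0.629), and for Pcna −0.3 (SE 0.26, adjusted p = 0.579). At this day both CRC males were among the arrays with low colonocyte markers. Without the 5 arrays whose colonocyte or squamous markers stood apart, which leaves the CRC females alone in that group, the members' median was 0.35, Plk1 differed by 0.64 and Pcna by −0.29 (limma adjusted p = 0.999 for both), and 0 members were called.

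At 14 days all 10 differences were below 0, from −0.77 in Bub1 to −0.05 in Pcna, with a median of −0.19 against 0.01 over all genes. The shared direction rested on male 1 of CRC + E171: without it 7 of the 10 were above 0, among them Ccnb1 at 0.34 and Cdk1 at 0.21, and the median was 0.1. Without male 2 of CRC + E171, the array with low colonocyte and high squamous markers, all 10 were below 0 and the median was −0.51. Bub1, the checkpoint kinase, was at −1.4, −1.51, −1.1 and −1.48 in CRC and at −1.76, −2.3, −3.85 and −0.65 in CRC + E171. The females and male 1 of CRC + E171 were below all 4 CRC arrays, and male 2 was above them. The difference was −0.77 (SE 0.52, limma adjusted p = 0.751), and the exact two-sided permutation p was 0.343. Without male 2 of CRC + E171, the array with low colonocyte markers, it was −1.27 and met the fold change rule with an adjusted p of 0.272, and without male 1 of CRC + E171, the array at −3.85, it was −0.2 (adjusted p = 0.958). The other members differed by −0.36 (Cdk1) or less in size, with SEs of 0.26 to 0.52. For Cdk1, the mean of −0.47 ± 1.25 in CRC + E171 held an array at −2.17 and another at 0.76, either side of all 4 CRC arrays.

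At 21 days 7 of the 10 differences were below 0, from −0.5 in Ccnb1 to 0.32 in Pcna, with a median of −0.2 against 0.02 over all genes. Without male 2 of CRC + E171 the median was −0.03. Pcna, the polymerase clamp, was at 3.07, 3.38 and 3.16 in CRC and at 3.42, 3.47, 3.58 and 3.62 in CRC + E171. The 4 arrays with E171 were all above the 3 without it, and Pcna was the 1 of 10 members without overlap, where 8.02% of all genes had none in either direction. The corresponding shares of all genes were 3.91% at 2 days, 4.85% at 7 days and 5.9% at 14 days, and no member was without overlap at those days. The exact permutation p for Pcna was 0.0286, the smallest that 4 against 3 arrays can give. In limma, which shares the spread over all 8 groups, the difference of 0.32 had an SE of 0.28 (adjusted p = 0.933). The range of Pcna within CRC + E171 at 2 days alone was wider than the difference between these groups. Ccnb1 was at −2.1, −2.51 and −2.59 in CRC and at −2.12, −2.48, −2.87 and −4.12 in CRC + E171, with a difference of −0.5 (SE 0.56, limma adjusted p = 0.943). Without the last array it was −0.09.

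Over the 4 days together, where both arms lie on the same slides, the differences ran from −0.32 in Mcm2 to 0.05 in Plk1, and that of Aurka was 0. The median was −0.11. Without 1 array it was −0.21 to −0.01, and Mcm2 was −0.41 to −0.17. The rule of fold change and p called 0 members and 1.79% of all genes, and the adjusted p called 0 members and 0.00505% of all genes. The SEs were 0.13 (Pcna) to 0.27, and the widest 95% interval, that of Bub1, ran from −0.83 to 0.27. For Pcna the interval was −0.3 to 0.24, so a fold change of 1.5 in the mean over days (0.585 on the log2 scale) lay outside it. Intervals that held a fall of that size were those of Top2a, Ccnb1, Cdk1, Bub1 and Mcm2. The difference of the E171 effect between days passed the adjusted p in 0 members and 0% of all genes. The difference of the effect between sexes passed in 0 members and 0.00505% of all genes, with values from −0.23 in Mcm2 to 0.57 in Cdk1. Without 1 array these 2 were −0.46 to 0 and 0.21 to 0.94.

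The lists of other cell cycle genes were read in the same way, beside the shares of all genes called, which were 1.72% at 2 days, 12.4% at 7 days and 6.34% at 14 days. At 2 days Myc, a growth transcription factor, was the 1 of 15 genes of the G1 to S list called, and it fell by 0.75 (limma adjusted p = 0.999). Without male 2 of CRC + E171 the difference was −0.43, and it missed the rule without female 1 of CRC too. At 14 days Cdk6, a kinase of G1, was the 1 of 15 called, at 0.79 (adjusted p = 0.59). It was 0.49 without female 2 of CRC + E171, and the call was lost in 4 of 31 fits without 1 array. At 7 days 1 of 58 mitotic genes was called, the cytokinesis motor Kif23 (0.7, adjusted p = 0.253), which missed the rule without male 1 of either arm (0.62 and 0.57). Of the 17 inhibitors 4 were called at that day. Of the 40 replication genes 0 were called at any day.

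The inhibitors called at 7 days were Cdkn2b at 1.32, Tob1 at 0.76, Cdkn1b at 0.6 and Cdkn1c at −0.84, with adjusted p-values of 0.201 to 0.29. Cdkn2b, which blocks the G1 kinases, was at 3.25 and 2.65 in the CRC females, at 0.6 and 0.17 in the CRC males, and at 3.09, 2.78, 3 and 3.06 in CRC + E171. The low values were those of the same CRC males whose colonocyte markers were at −6.03 and −3.78. Without the 5 arrays whose colonocyte or squamous markers stood apart, the values were 0.04 for Cdkn2b, 0.26 for Tob1, 0.24 for Cdkn1b and −0.07 for Cdkn1c, and none of them was called. Without them Kif23 stood at 0.66 and Cdk6 at 0.78, and neither was called.

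The second comparison followed the members over time, with both arms together. From 2 to 7 days all 10 differences were below 0 (−0.47 in Ccnb1 to −0.05 in Mcm2), from 7 to 14 days all 10 were above 0 (0.01 in Cdk1 to 0.39 in Plk1), and from 14 to 21 days all 10 were below 0 (−0.79 in Top2a to −0.17 in Cdk1). The medians were −0.32, 0.26 and −0.39. Without 1 array at least 8, 7 and 9 of the 10 had these directions, and the medians were −0.55 to −0.19, 0.12 to 0.47 and −0.56 to −0.25. The ends belonged to fits without male 1 of CRC and female 2 of CRC + E171 at 2 days for the first, and without male 1 or male 2 of CRC + E171 at 14 days for the others. None passed an adjusted p of 0.05. Of all genes 0% passed for 7 against 2 days, 0% for 14 against 7 days and 0.0808% for 21 against 14 days. Between days that share slides, the members differed by −0.24 to 0.32 for 14 against 2 days and by −0.42 to 0.15 for 21 against 7 days, again with 0 members called, where 0% and 0.157% of all genes were. A test over the 4 days within CRC called 0 members and 0% of all genes, and so did the test within CRC + E171.

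Top2a had the largest difference, between 14 and 21 days. In CRC it was at −0.43, −0.29, −0.1 and −0.4 after 14 days and at −1.05, −1.22 and −0.93 after 21 days. In CRC + E171 it was at −0.19, −0.85, −1.42 and 0.41 after 14 days and at −0.84, −1.92, −1.18 and −1.41 after 21 days. The days were apart in CRC and overlapped in CRC + E171. The difference over both arms was −0.79 (SE 0.36, limma adjusted p = 0.335), and those within the arms were −0.76 (SE 0.53) and −0.82 (SE 0.49). It was the 1 of 10 members with an unadjusted p under 0.05 between these days, where 13.7% of all genes had one in either direction. Of the 40 replication genes, 39 were below 0 here with a median of −0.52, and 21 had an unadjusted p under 0.05 and 0 an adjusted one.

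Among the other cell cycle genes E2f2, one of the E2F transcription factors that switch on S phase genes, stood out between days. In CRC + E171 it was at −1.55, −1.43, −0.86 and −0.43 after 21 days, and in CRC at −0.92, −0.44 and −0.89. After 14 days it was at 0.94, 0.45, 1.35 and 1.52 in CRC + E171 and at 1.75, 1.83, 2.19 and −0.05 in CRC. After 7 days it was at 1.32, 0.46, 0.87 and 2.13 in CRC + E171 and at 0.74, 1.47, −0.05 and 1.39 in CRC. All 7 arrays of 21 days lay below every array of 7 and 14 days. It fell by 2.16 from 14 to 21 days (SE 0.37, adjusted p = 0.015), and it fell by 1.95 between 7 and 21 days (SE 0.37, limma adjusted p = 0.0243). The adjusted p was 0.0951 and 0.304 without the 5 arrays that stood apart, with differences of −1.96 and −1.93. Leaving out 1 array at a time gave adjusted p-values of 0.00126 to 0.0562 for 21 against 14 days, with the call lost without female 1 of either arm at 21 days or male 1 of CRC at 14 days. For 21 against 7 days it was 0.00935 to 0.087, with the call lost without any of the 3 CRC arrays or either CRC + E171 female at 21 days, CRC male 2 at 7 days, or CRC + E171 female 1 or male 2 at 7 days.

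The third comparison was between the sexes. Over all groups the 10 members were all higher in females, by 0.2 (Mki67) to 0.42 (Mcm2), with 0 of 10 past an adjusted p of 0.05 and 0.0556% of all genes past it. None of the members had an unadjusted p under 0.05, which 8.79% of all genes had. The array labelled male 2 of CRC at 14 days, with an Xist level in the female range, counts as a male here and at 14 days. Leaving out 1 array at a time, that array included, kept all 10 members higher in females, with medians of 0.16 to 0.35. Without the 5 arrays whose colonocyte or squamous markers stood apart, the median rose from 0.23 to 0.53, 7 of 10 had an unadjusted and 0 an adjusted p under 0.05, where 16.3% of all genes had an unadjusted one in either direction, and Mcm2 was at 0.69 (adjusted p = 0.156). The days were examined separately after the values had been seen. At 2 days the differences were 0.86 (Pcna) to 1.73 (Top2a), with a median of 1.21 against −0.04 over all genes. Of the 10 members 9 had an unadjusted p under 0.05 in limma, the exception being Ccnb1, where 7.16% of all genes had it with the higher value in females. With adjustment 0 of 10 passed (adjusted p = 0.0586 to 0.536), where 0.359% of all genes did, or 71 genes. That count was 2 to 379 without 1 array, the ends being those without male 1 of CRC or male 2 of CRC + E171 at 2 days and without male 2 of CRC at 2 days.

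Top2a after 2 days was at 0.18 and 0.38 in the females and −2.12 and −0.23 in the males of CRC, and at 0.43 and 0.45 in the females and −0.93 and −2.18 in the males of CRC + E171. The 4 females were above the 4 males. The difference was 1.73 (SE 0.41, fold change of 3.32, adjusted p = 0.0639). Mcm2 was at 0.23 and 0.48 in the females and −1.34 and −0.42 in the males of CRC, and at −0.05 and 0.13 against −0.8 and −2.62 in CRC + E171. Its difference was 1.49 (SE 0.35, fold change of 2.81, adjusted p = 0.0586). For both genes the females of each arm were close to each other and the males were spread.

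Pcna was at 4, 4.01, 4.17 and 3.82 in the females and at 3.08, 3.37, 3.54 and 2.56 in the males, with a difference of 0.86 (SE 0.22, adjusted p = 0.0794). Bub1 was at −1.04, −0.66, −1 and −0.6 in the females and at −2.95, −1.24, −2.18 and −2.81 in the males, with a difference of 1.47 (SE 0.51, adjusted p = 0.217). Plk1 was at 2.15, 2.56, 2.36 and 2.83 in the females and at 0.47, 2.15, 1.32 and 1.09 in the males, so that a female and a male of CRC had the same level. In Ccnb1 the males ran from −3.28 to −1.54 and the females from −2.17 to −1.21. For the other 8 members the females and males did not overlap, where 7.27% of all genes had no overlap with the higher value in females. An exact permutation of the sexes within the arms gave p = 0.0556 for each of these 8, the smallest p the design allows.

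The direction was the same on all 4 slides that held arrays of 2 days. On each, the female was higher than the male in 10 of 10 members, with medians of 1.61 and 0.4 on the slides of CRC and 1 and 1.71 on those of CRC + E171. The smallest of these 40 differences was 0.01 and the largest 2.75. With slide as a fixed block 9 members had an unadjusted p under 0.05 and 0 an adjusted one, where 0.424% of all genes had an adjusted one. With slide as a random block 2 members passed, Top2a (adjusted p = 0.0478) and Mcm2 (adjusted p = 0.0459), where 0.96% of all genes did. Male 1 of CRC had much of the weight: without it 4 of 10 members had an unadjusted p under 0.05. The arrays of the 2-day groups were not among those with low colonocyte or high squamous markers, but male 2 of CRC and female 2 of CRC + E171 were among those with high pancreatic acinar markers. Without the former 10 members had an unadjusted p under 0.05, 5 of them an adjusted one, where 1.91% of all genes had an adjusted one, and without the latter 9 had an unadjusted p under 0.05.

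**Figure D5:**
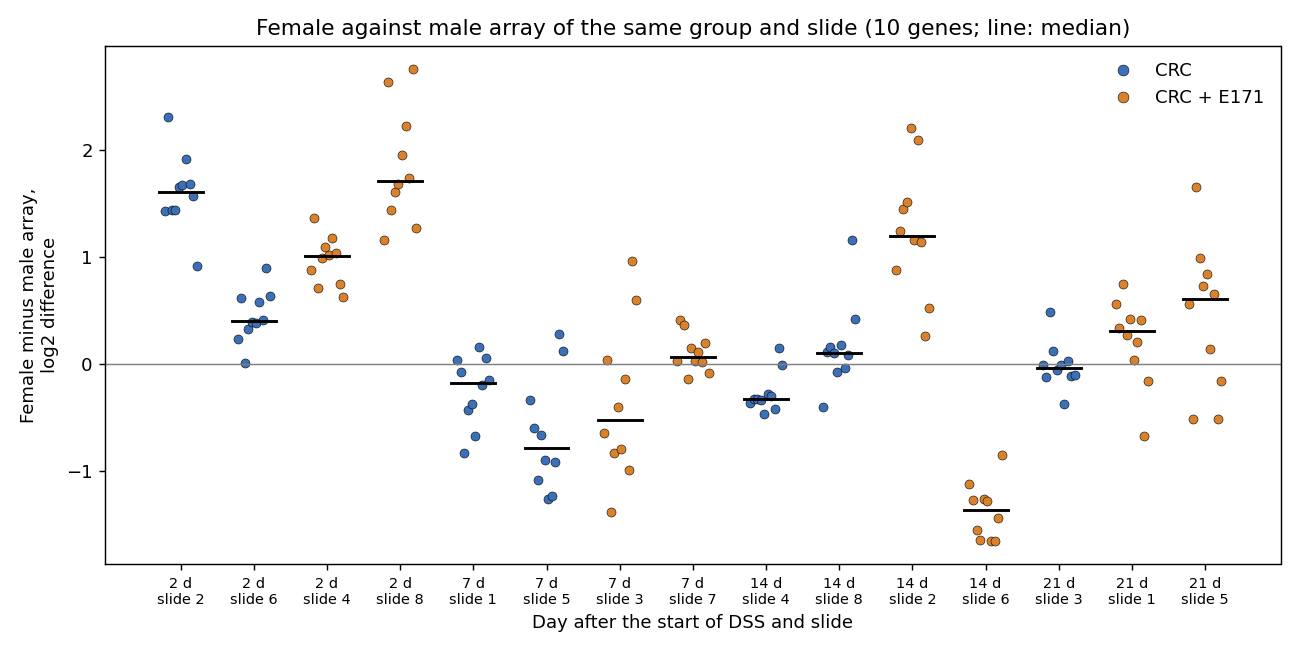
Log2 difference of female minus male on the same slide for each member, with slides ordered by day and arm and 1 point for each pair of arrays. At 2 days all 40 points lie above 0, from 0.01 to 2.75, and at the later days the slides differ in direction, as in CRC + E171 at 14 days (medians of 1.2 and −1.36).

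At the later days the sexes did not differ in 1 direction. At 7 days 8 of 10 members were lower in females (−0.73 in Ccnb1 to 0.38 in Mcm2), at 14 days 6 were (−0.25 to 0.1), and at 21 days 6 were higher (−0.29 to 0.74). At 14 days all 10 were lower in females without male 1 of CRC + E171 and all 10 higher without male 2. No member had an unadjusted p under 0.05 at these days, where 18.8%, 4.28% and 6.38% of all genes had one, and of all genes 4.78%, 0.0101% and 0.0354% passed an adjusted p. Of the pathway lists, with 15, 40, 58 and 17 genes tested, 4 genes passed an adjusted p at 7 days, where 4.78% of all genes did. All 4 were higher in females: the kinase Wee1, which holds Cdk1 inactive, at 2 (limma adjusted p = 0.00449), Cdkn2b at 1.23 (0.0177), the replication inhibitor Gmnn at 0.77 (0.0345) and the phosphatase Cdc25a at 0.71 (0.0479). For Cdkn2b the CRC females were at 3.25 and 2.65 and the CRC males at 0.6 and 0.17. In CRC + E171 the females were at 3.09 and 2.78 and the males at 3 and 3.06. Without 1 array the call was lost in 0 of 31 fits for Wee1, 3 for Cdkn2b, 7 for Gmnn and 25 for Cdc25a. The males of that day include the CRC pair with low colonocyte markers, and the part of these markers in the 4 values was not tested. The difference between the sexes at 2 days minus that at the later days was 0.83 (Pcna) to 1.82 (Top2a). It had an unadjusted p under 0.05 in 9 of 10 members, where 6.48% of all genes had it with the larger value at 2 days, and an adjusted p under 0.05 in 0 of 10 (0.114 to 0.571) and in 0.0404% of all genes. The labels behind these values include the array labelled male 2 of CRC at 14 days, and without that array the median of this contrast over the members was 1.31, with 9 of 10 at an unadjusted and 0 at an adjusted p under 0.05 (Top2a 1.84, adjusted p = 0.11).

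At 2 days 3 of the 4 pathway lists were mostly higher in females, and the inhibitors were not. All 40 replication genes were higher in females, 38 with an unadjusted and 5 with an adjusted p under 0.05, and all 58 mitotic genes were higher, 47 and 0. Of all genes 12.1% had an unadjusted p under 0.05 in either direction, 7.16% had it with the higher value in females, and 0.359% had an adjusted one. The medians were 1.2 for the replication and 0.96 for the mitotic list, against −0.04 over all genes. Of the 15 G1 to S genes 13 were higher and 8 had an unadjusted p under 0.05 (median 0.46). Of the 17 inhibitors 8 were higher, 3 of them with an unadjusted p under 0.05, and the median was −0.04.

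The replication genes past an adjusted p were Cdc7, the kinase that fires origins, at 1.8 (SE 0.35, adjusted p = 0.0422), Mcm10, an origin firing factor, at 1.73 (SE 0.3, 0.0273), and Fen1, a flap nuclease of the lagging strand, at 1.55 (SE 0.3, 0.0365), with the licensing factor Cdt1 at 1.42 (0.0287) and the DNA ligase Lig1 at 1.26 (0.0287). Cdt1 and Lig1 were named after their values were seen. Mcm10 was at −0.21, −0.25, −0.21 and −0.16 in the 4 females and at −2.44, −1.2, −1.3 and −2.8 in the 4 males. The females were within 0.1 of each other and all above the males. All 5 calls were lost without any 1 of 6 arrays, which were the 4 females, male 1 of CRC and male 2 of CRC + E171, and the adjusted p then reached 0.375 for Cdc7 and 0.241 for Mcm10. The calls of Cdc7 and Fen1 were also lost without single arrays of other days, and those of Cdc7, Fen1 and Cdt1 with the authors' value table (adjusted p = 0.0541 to 0.0799). The size of the Cdc7 difference was 1.09 to 1.81 under the alternatives and 1.43 to 2.18 without 1 array.

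Means of cell type markers at 2 days are given beside these values, and those of females and males overlapped in each list given here. The mean of 6 T cell markers was 0.54 to 1.73 in the females and −1.7 to 0.85 in the males, and that of 7 B cell markers 0.34 to 1.67 and −2.13 to 0.92. Of the T cell markers 5 of 6 had an unadjusted and 0 an adjusted p under 0.05, where 12.1% and 0.359% of all genes did. Surface colonocyte markers were 0.21 to 0.56 in the females and 0.54 to 1.04 in the males, and 7 crypt stem cell markers −0.07 to 0.29 and −0.98 to 0.18. Over the 31 arrays, 4 of the 7 crypt stem cell markers had a positive r with the members' mean, group means removed. Of the 7, Lgr5, the receptor that marks these cells, passed an adjusted p, with a difference of 2.74 (SE 0.57, limma adjusted p = 0.0475), and it was named after its values were seen. The call was lost in 24 of 31 fits without 1 array, with differences of 1.86 to 3.62. At 7 days, when 8 of the members were lower in females, Lgr5 was higher in females as well, at 2.61 (adjusted p = 0.0159), and that call was lost in 3 of 31 fits. The males of that day include the CRC pair with low colonocyte markers, and other epithelial and goblet markers were higher in females then too, such as Vil1 at 1.95 and Clca1 at 3.88, while the neutrophil marker S100a8 was at −6.69. Vil1, Clca1 and S100a8 are single genes of lists with 10, 7 and 7 tested genes. The mean of 8 smooth muscle markers was −0.71 to 0.45 in the females and −0.07 to 0.91 in the males. Pan-epithelial markers were alike in range (0.03 to 0.35 and 0.03 to 0.48), and so were germinal centre B cell markers (−0.26 to 0.43 and −0.45 to 0.21). The part of these cell types in the member levels was not tested.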

How the data were processed

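Scanner files of 31 arrays held the intensity of each spot as deposited: the authors scanned the arrays and extracted them with Feature Extraction 10.7.3.1, which subtracted the background, removed spatial trends and put a substitute value where a spot was not above background. The authors' value table held log2 values after flag filters, imputation and a normalization not given in the sources used here, with column medians of 9.43 to 9.67, and it served as an alternative. Each of its columns was most like its own array (Spearman's rho of 0.994 or more).

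Outlier spots were left out, and values were log2 of the processed signal minus the 75th percentile of the array. Probes were kept when at least 60% of the arrays of a group were well above background with a mean log2 signal of 4 or more (42787 of 56605 probes), were matched to genes by accession (32994), symbol (10224) or synonym (523) in the RefSeq table, and were averaged per gene. Of the probes, 12864 matched no gene and were not used.

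Analyses used R 4.3.3 with limma 3.58.1 and statmod 1.5.0. A limma model with empirical Bayes variances was fitted to all genes over the 8 groups, and over groups split by sex for comparisons of the sexes by day, and p-values were adjusted over all genes by the Benjamini-Hochberg method. The methods word their threshold as a log2 fold change of 1.5 with a p of 0.05. It was read here as a linear fold change of 1.5, and the log2 reading was an alternative, which also called 0 members. The fit was tested on simulated data. Exact permutation tests were two-sided. The labels do not tie each array to a mouse of its own. The methods give 2 males and 2 females per arm and day, which matches the arrays of 7 of the 8 groups and would make each array 1 mouse. P-values measure the spread between these arrays, whose number limits the precision. Scan day was tested as a batch. Slide was tested as a random block, and as a fixed block only for comparisons that lie within slides. Those with E171 on a single day do not.

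All 10 members are named. Of each pathway list, the 3 genes with the largest increase and decrease among those called are named, as are the 10 genes most and the 5 least like the members. Marker genes of cell types were outside this rule. Pathway genes called between the sexes at 7 days, a comparison added after the values were seen, are named too. The members, the lists and the comparison of sexes by day were chosen with earlier results of these data known. Alternatives were scaling, background correction, the authors' table, filters, probe choice, blocks, weights, thresholds and leaving out arrays.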

Additional observations from a re-analysis of the deposited data

Results flagged for a closer look

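Within 70 sets of 4 arrays (7 groups, 10 members), 3 values stood apart from the other 3 arrays of their group by more than the 95% critical value of Dixon's test. Chance gives about 1 in 20. Mki67 was at 2.06 in male 1 of CRC at 2 days, against 3.35 to 3.58 in the others. Ccna2 was at 1.5 in male 1 of CRC + E171 at 7 days, against 0.55 to 0.69. Plk1 was at 2.38 on that same array, against 1.27 to 1.38. The causes were not tested.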

How the results depend on the processing

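Under 16 or fewer alternatives and 31 fits without 1 array each, the 10 members kept 0 calls for E171 at 2, 7 and 21 days, for E171 over the 4 days and for every difference between days. At 14 days array weights, and leaving out the 5 arrays whose colonocyte or squamous markers stood apart, called 1 member, Bub1 (−1.13 and −1.27), and leaving out 1 array gave 0 to 1. Of 19798 genes 1256 were called at 14 days in the report's fit and 2842 without the 5 arrays, the most under any alternative. Without 1 array it was 883 to 2130. For the sexes at 2 days, the count past an adjusted p, 0 in the report, was 1 with normexp background correction (Top2a, where 0.763% of all genes passed), 2 with slide as a random block (Top2a, Mcm2, 0.96%), 9 with array weights (4.8%), 1 with an intensity trend (Mcm2, 0.793%), 4 without the 5 arrays (2.12%), and 0 to 5 without 1 array, and 4 to 10 members had an unadjusted p under 0.05. For 2 days against later days it was 2 with array weights and 0 to 7 without 1 array, with 4 to 10 unadjusted. Without 1 array the count of all genes past an adjusted p was 2 to 379 at 2 days (71 in the report) and 0 to 723 for 2 days against later days (8), and the 7 members came with the 723 genes. Male 1 of CRC at 2 days gave the 4 in both, and males of CRC + E171 at 14 days and of either arm at 2 days gave the higher counts. The cause was not tested.

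Directions of single members turned in several comparisons. For E171 at 2 and 14 days 9 and 7 of the members were above 0 without male 2 and male 1 of CRC + E171, against 1 and 0 in the report. Plk1 for E171 at 2 days was −0.37 with array weights and −0.38 to 0.34 without 1 array, and over the 4 days it was 0 with normexp, −0.02 with the authors' table, −0.08 with array weights, −0.02 without the 5 arrays and −0.07 to 0.13 without 1 array. Pcna for E171 at 14 days was 0.06 with normexp, 0.04 with the authors' table and −0.19 to 0.15 without 1 array. Mcm2 for E171 at 2 days was −0.93 to 0.02 without 1 array, and for 7 against 2 days it was 0.03 with scan day as a block and −0.35 to 0.11 without 1 array. Cdk1 for 14 against 7 days was −0.11 with normexp, −0.13 with the authors' table, −0.04 with scan day, −0.03 without the 5 arrays and −0.19 to 0.3 without 1 array. Without 1 array Cdk1 for 21 against 14 days was −0.46 to 0.03 and Ccnb1 for 14 against 2 days −0.5 to 0.01.

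Of 15 pairs of arrays with the same day, sex and replicate number across the arms, 8 correlated above 0.1 (−0.18 to 0.48). This does not settle whether the numbers pair the arrays. With sex and number as a replicate block, 0 members were called in any comparison, as without it. Over all genes the E171 count at 2 days was 340 and reached 877 with array weights, that at 14 days was 1256 and reached 2842 without the 5 arrays, and that at 21 days was 528 and reached 1204 with array weights. For the sexes at 2 days it was 71, with 29 in the authors' table and 950 with array weights. Array weights also gave 552 for E171 over the 4 days (355 in the report's fit), 587 for 21 against 14 days (16), 479 for 14 against 2 days (0), 85 for 21 against 7 days (31), 468 and 889 for the days in CRC and in CRC + E171 (0 in both), 63 for the sexes (11) and 544 for 2 days against later days (8). Without the 5 arrays 0 genes were called for 21 against 7 days, and with scan day as a block 6 for 21 against 14 days. Leaving out 1 array gave 4 to 180 for 21 against 7 days and 3 to 202 for 21 against 14 days. Without 1 array the E171 count at 7 days (2455) was 916 to 3973. Normexp moved the median of all genes for E171 at 2 and 21 days to 0.12 and 0.11.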
